A study of Mus musculus with 21 samples.

Results

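The 10 genes described here act at the entry into the cell cycle. They encode the D cyclins (Ccnd1, Ccnd2, Ccnd3), 2 Myc transcription factors (Myc, Mycn), and 5 inhibitors of cyclin-dependent kinases, of which Cdkn1a, Cdkn1b and Cdkn1c belong to the Cip/Kip family and Cdkn2a and Cdkn2b to the INK4 locus. They were chosen by name, as the rows of the count table that carry these gene names, and make up 10 of its 23713 genes. Bulk RNA sequencing was done on keratinocytes released from mouse tail skin in 3 mouse models of basal cell carcinoma (BCC), a skin tumour driven by Hedgehog signalling. The models are named SmoM2, after an activated form of the Hedgehog signal transducer Smoothened, Gnas-eKO, after a knockout of Gnas, which encodes the stimulatory G protein alpha subunit, and PKI, after an inhibitor of protein kinase A. Each model had 3 libraries from control mice without tumour (Con) and 4 from mice with tumours (BCC), 21 libraries in all. Cells were collected 29 days after tumour induction in SmoM2, batch A, 42 days after it in Gnas-eKO, batch B, and 57 days after it in PKI, batch C. Model, batch and day therefore cannot be told apart. Both were the same for the Con and BCC mice of a model. The labels give no strain, age, allele, promoter or Cre driver, and do not say whether the Con mice carried or received part of the induction. In the column headers the animal names of SmoM2 BCC start with other letters than those of SmoM2 Con, so in SmoM2 the tumour and whatever those letters stand for, which is not given in the sources used here, cannot be told apart.

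D cyclins bind CDK4 and CDK6, and the resulting kinases phosphorylate the retinoblastoma protein RB, which releases E2F transcription factors and lets the cell enter S phase. Myc and Mycn are closely related transcription factors that pair with Max and raise genes of growth and ribosome production, and D cyclins and Mycn are long known as targets of Hedgehog signalling in several tissues. INK4 proteins block CDK4 and CDK6, Cip/Kip proteins bind cyclin and kinase complexes more broadly, and Cdkn1a is a classical target of the tumour suppressor p53.

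Library totals ranged from 16645858 to 22251132 counts, and 3 counts corresponded to 0.133 to 0.189 CPM, the count scaled to library size after adjustment by the trimmed mean of M values (TMM). Intervals and floors from counts cover counting error only. In the first principal component of all libraries, Gnas-eKO BCC replicate 2 lay at −20.4, between the 3 Con libraries of its model (−51.3 to −40.4) and the other 3 BCC libraries (46.3 to 48.5), and the Gnas-eKO changes, shares and order of levels are therefore given with and without it, the latter chosen after seeing the data for the shares, the order and the Cdkn2a ratio. Gnas was at 172 to 178 CPM in Gnas-eKO Con and 51.1 to 115 in Gnas-eKO BCC. Smo was at 93.6 to 110.4 CPM in SmoM2 Con and 283 to 312 in SmoM2 BCC. It was also higher in BCC than Con in Gnas-eKO (149.6 to 233.4 against 105.6 to 112.7) and PKI (137.8 to 160.6 against 98.03 to 113.2). The gene Pkia lay at 2.10 to 4.98 CPM in the PKI libraries, and what the PKI construct would add to a count is not given in the sources used here. All 7 basal keratinocyte markers were found in every group, and their summed level was lower in BCC than in Con without overlap in each model. It was 23290 to 25180 CPM against 31070 to 40120 in SmoM2, with 5 of 7 called lower and 1 higher, 16600 to 33580 against 36510 to 39750 in Gnas-eKO, with 0 called by edgeR, and 29450 to 32000 against 34860 to 39810 in PKI, with 4 of 7 called lower. The 6 suprabasal markers summed to 16040 to 30670 CPM in SmoM2 BCC against 30110 to 42490 in Con, with 5 of 6 called lower, and to 15370 to 47440 against 22560 to 38680 in PKI, with 3 lower and 1 higher. In Gnas-eKO they summed to 15570 to 27370 CPM against 25800 to 33830, with 0 called by edgeR. Of 10 leukocyte markers, 8 were called higher in PKI BCC, with a summed level of 259 to 482 CPM against 49.2 to 124 in PKI Con, while the sums overlapped between Con and BCC in the other models. The 6 fibroblast markers summed to 387 to 525 CPM in SmoM2 BCC against 17.1 to 39.8 in Con, to 94.2 to 579 against 15.9 to 27.4 in Gnas-eKO and to 84.4 to 145 against 15.8 to 43.5 in PKI. The edgeR test called 3 of the 6 higher in PKI, 2 in SmoM2 and 1 in Gnas-eKO. Most of those sums came from Dcn. Of the collagen genes, Col1a2 was at 7.65 to 22.1 CPM in SmoM2 BCC against 1.19 to 3.24 in Con. Col1a1 (1.158 to 3.655 against 1.194 to 1.892) and Col3a1 (1.852 to 4.257 against 0.7805 to 6.109) overlapped there. In Gnas-eKO, Col1a1 was at 2.57 to 28.9 against 1.62 to 2.07 and Col1a2 at 3.161 to 25.65 against 1.005 to 1.736, while Col3a1 overlapped. In PKI, Col1a1 was at 5.43 to 17.5 against 0.568 to 5.22 and Col3a1 at 5.38 to 12.4 against 0.884 to 4.10, while Col1a2 overlapped. Lum was at 1.03 to 2.05 CPM in PKI BCC against at most 0.355 in Con, and Pdgfra lay between 0.0631 and 1.20 CPM in every library. Endothelial markers summed to at most 4.75 CPM and muscle markers to at most 1.15 CPM. Melanocyte markers summed to 72.2 to 117 CPM in PKI BCC against 153 to 201 in Con, with 4 of 5 called lower. In SmoM2 they summed to 108.6 to 158.6 CPM against 115 to 203.4, with 2 of 5 called lower. In Gnas-eKO they summed to 117.4 to 195.5 CPM against 111.8 to 171.8, with 0 called by edgeR. The part of other cell types in the results below was not tested. In bulk RNA, a gene that falls can reflect fewer cells of a type or less RNA per cell, and these cannot be told apart.

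All 10 genes passed the filter on low counts in each model, Cdkn2a only through the BCC libraries, so its passing is no independent sign of a difference. Genes were called where the edgeR quasi-likelihood test gave an adjusted p under 0.05. In SmoM2, 3 of the 10 were called higher in BCC (Mycn, Cdkn1c, Cdkn2a) and 3 lower (Myc, Cdkn1a, Cdkn2b), against 16.2% of all tested genes called higher and 13.5% lower. In Gnas-eKO, Mycn alone was called higher and 0 of 10 were called lower, against 1.46% and 0.165% of all tested genes. At an unadjusted p under 0.05, 2 of the 10 were higher and 2 lower in Gnas-eKO, against 12.2% and 7.34% of all tested genes. The DESeq2 Wald test called 2 higher and 1 lower there, against 6.13% and 2.19% of all genes it tested. Without Gnas-eKO BCC replicate 2, 2 were called higher (Mycn, Cdkn2a) and 1 lower (Myc), against 7.36% and 4.43% of all tested genes in that fit, and the other 7 had adjusted p of 0.19 or more. In PKI, 2 were called higher (Mycn, Cdkn2a) and 2 lower (Ccnd2, Cdkn1b), against 18.7% and 15.8% of all tested genes. The BCC and Con libraries did not overlap in level for 7 of the 10 genes in SmoM2, where 38.8% of all tested genes did not, for 5 in Gnas-eKO (19.7% of all) and for 5 in PKI (43.2% of all). Only Mycn was called in the same direction in all 3 models.

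**Figure D1:**
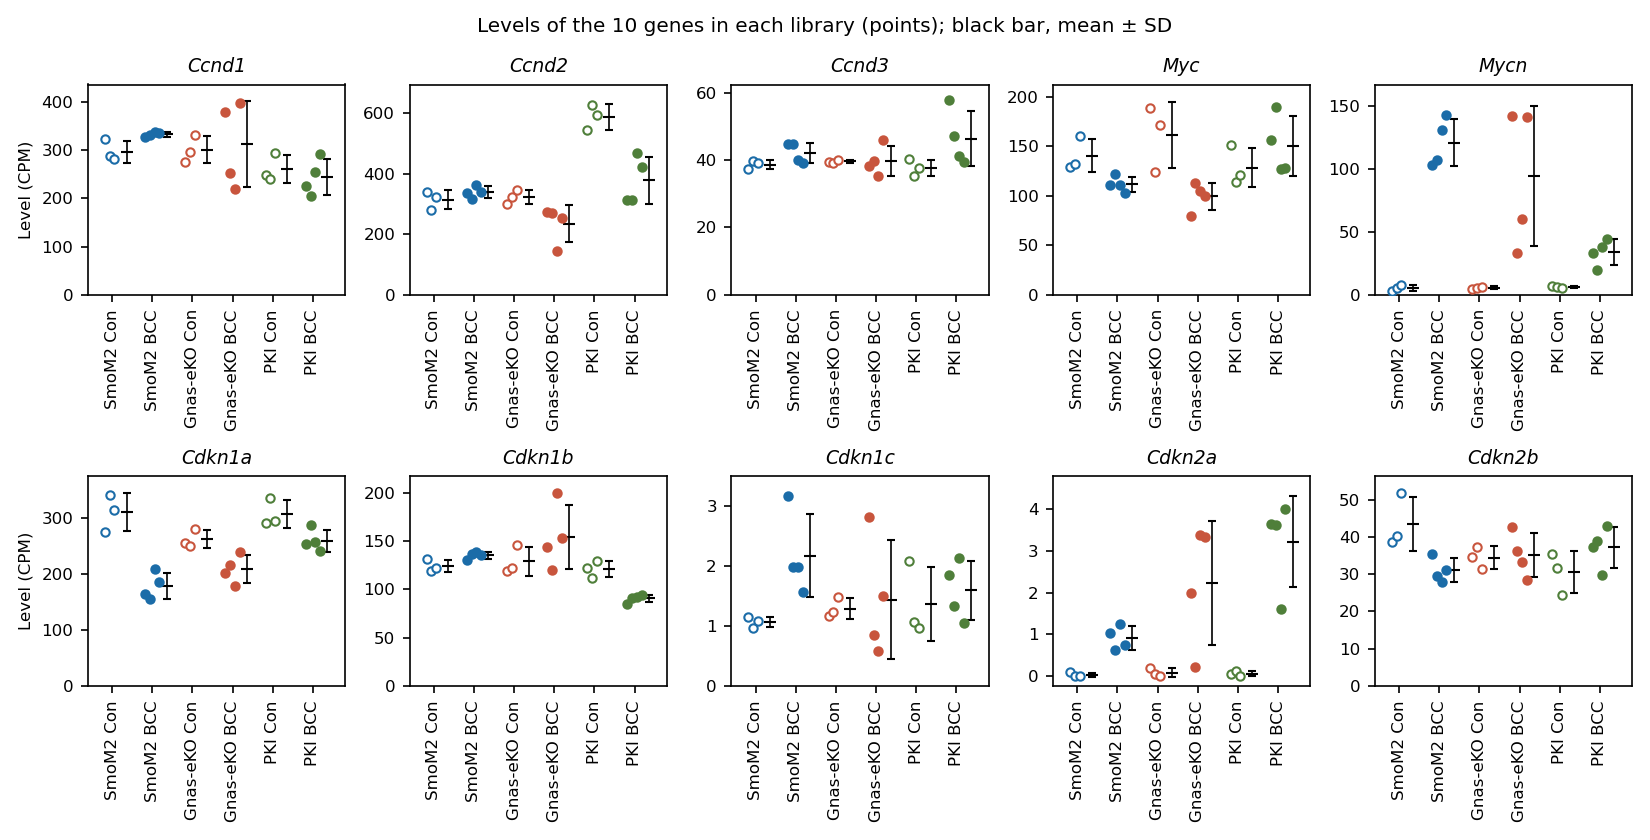
Level of each of the 10 genes in CPM (vertical axes, linear, each with its own range) in the 3 Con (open) and 4 BCC (filled) libraries of each model, with the mean and SD as black bars. Mycn lay below 8 CPM in every Con library and above 19 CPM in every BCC library, and Ccnd2 stood higher in PKI Con than in the other Con groups.

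Mycn rose in all 3 models and, apart from the far scarcer Cdkn2a, had the largest fold change of the 10 genes in each. In SmoM2 Con it was at 2.76, 5.22 and 7.95 CPM, and in SmoM2 BCC at 103, 107, 131 and 143 CPM. In Gnas-eKO the 3 Con libraries had 4.20, 5.64 and 6.38 CPM and the 4 BCC libraries 142, 33.1, 60.4 and 141 CPM. In PKI the values were 6.94, 5.81 and 5.46 CPM in Con and 33.0, 19.8, 37.8 and 43.9 CPM in BCC. Every BCC library of every model lay above all 9 Con libraries, the lowest being PKI BCC replicate 2, and Gnas-eKO BCC varied the most, from 33.1 to 142 CPM. On the log2 scale it rose by 4.54 in SmoM2 (SE 0.35, edgeR's adjusted p 0.000143), by 4.14 in Gnas-eKO (SE 0.56, edgeR's adjusted p 0.0206) and by 2.48 in PKI (SE 0.27, edgeR's adjusted p 0.000489), which correspond to 23.2-fold, 17.6-fold and 5.57-fold. The rise was smaller in PKI than in SmoM2 by 2.06 on the log2 scale (95% interval of the difference −3.04 to −1.08, edgeR's adjusted p of the interaction 0.00636). For Gnas-eKO against SmoM2 the difference was −0.39 (−1.84 to 1.05, adjusted p 0.893), and for PKI against Gnas-eKO −1.66 (−3.02 to −0.30, adjusted p 0.122). In Gnas-eKO the rise was 4.42 without BCC replicate 2 (adjusted p 0.000678), and the difference of PKI against Gnas-eKO was then −1.94 (adjusted p 0.0189). The Gnas-eKO call was lost without Con replicate 1 (3.98, adjusted p 0.148), Con replicate 2 (4.16, 0.146), Con replicate 3 (4.27, 0.118) or BCC replicate 1 (3.87, 0.0578), each time with the direction kept.

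The Mycn gene (ENSMUSG00000037169.15) lies on chromosome 12 at 12936093 to 12941914 of GRCm38, on the minus strand. The stretch before its RefSeq start is shown because Mycn is the gene called in all 3 models. A search of the 250 bases before each annotated start covered 4 short motifs on both strands: GACCACCCA, the site bound by GLI factors of the Hedgehog pathway; TGACGTCA, the cAMP response element (CRE); CACGTG, the E-box bound by Myc and Max; and TTTGGCGC, a site for E2F factors. No match overlapped another. RefSeq windows were found for 6 of the 10 genes, 9 windows in all (Ccnd3, Cdkn1a and Cdkn2a have 2 starts each). Mycn carried 2 matches to TTTGGCGC, starting 183 and 168 bases before the start at 12941836, and 0.417% of all 32851 mouse windows of this length held that motif on either strand. The sequence (RefSeq, GRCm38.p6, chr12:12941915-12942086, minus strand, 5′ to 3′, with the matches in capitals) leaves off the bases next to the start that GENCODE M21 places in an exon.
Mycn: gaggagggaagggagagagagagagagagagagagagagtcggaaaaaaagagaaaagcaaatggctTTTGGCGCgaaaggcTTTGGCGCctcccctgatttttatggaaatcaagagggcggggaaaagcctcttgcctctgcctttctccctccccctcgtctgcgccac
GACCACCCA, found in 0.225% of all windows, CACGTG, in 6.02%, and TGACGTCA, in 1.55%, were not among the letters of this window. A match is a description of the letters and not a measured binding site.

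Myc, the more abundant relative, moved little by comparison. SmoM2 Con had 129, 132 and 160.2 CPM of Myc and SmoM2 BCC 111, 121, 110.3 and 103 CPM, so that all 4 BCC libraries lay below Con. Gnas-eKO Con had 188, 124 and 171 CPM and Gnas-eKO BCC 79.9, 113, 105 and 99.9 CPM, again without overlap. In PKI Con it was at 151, 113 and 121 CPM and in PKI BCC at 157, 190.1, 127 and 128 CPM, with overlap. Myc fell by 0.32 on the log2 scale in SmoM2 (SE 0.09, edgeR's adjusted p 0.0229). The log2 difference was −0.69 in Gnas-eKO (SE 0.17, edgeR's adjusted p 0.0836) and 0.24 in PKI (SE 0.16, edgeR's adjusted p 0.282). The SmoM2 call was lost without Con replicate 3 (−0.22, adjusted p 0.0635), BCC replicate 1 (−0.32, 0.0555) or BCC replicate 4 (−0.28, 0.0612), and in a joint fit of all 21 libraries (−0.34, 0.139). Gnas-eKO passed without BCC replicate 2 (−0.75, adjusted p 0.0381), with the DESeq2 Wald test (−0.70, 0.00924) and in the joint fit (−0.70, 0.00545). The changes in PKI and Gnas-eKO differed by 0.94 (95% interval 0.39 to 1.48, edgeR's adjusted p 0.0352), a call lost in 8 of the 14 fits that left out a library. Those were Gnas-eKO Con replicates 1 and 3, Gnas-eKO BCC replicates 1 and 4, PKI Con replicates 2 and 3 and PKI BCC replicates 1 and 2, with differences of 0.80 to 0.93 and adjusted p of 0.056 to 0.1, while without Gnas-eKO BCC replicate 2 it was 1.00 (adjusted p 0.0254). For PKI against SmoM2 the difference was 0.56 (0.14 to 0.99, adjusted p 0.0516), and it passed without PKI Con replicate 1 (0.70, adjusted p 0.0235), BCC replicate 3 (0.64, 0.0285) or BCC replicate 4 (0.64, 0.0304).

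Levels of different genes were compared per kilobase (kb) of annotated exon. Mycn made up 2.94% ± 1.12 (SD, n = 3) of the summed Myc and Mycn level per kb in SmoM2 Con and 47.1% ± 5.26 (SD, n = 4) in SmoM2 BCC. The share went from 2.80% ± 0.915 to 41.3% ± 18.7 in the Gnas-eKO mice and from 3.77% ± 0.246 to 16.1% ± 6.28 in the PKI mice, with SDs over the same library numbers, and was 48.5% ± 14.4 (n = 3) in Gnas-eKO BCC without replicate 2. No BCC library overlapped Con in this share, and Mycn exceeded Myc per kb in 1 or more BCC libraries of SmoM2 and Gnas-eKO, where the highest shares were 53.4% and 59.5%, but in none of PKI, where the highest was 22.1%. The summed level of both genes was 53.4 ± 7.01 CPM per kb in Con and 77.7 ± 4.08 in BCC of SmoM2, 61.0 ± 12.1 and then 65.2 ± 13.2 in Gnas-eKO, and 49.1 ± 7.54 and then 65.5 ± 8.08 in PKI (SD, n = 3 and 4). Those sums did not overlap between Con and BCC in SmoM2 (48.4 to 61.4 against 72.1 to 81.1) or in PKI (43.5 to 57.7 against 58.1 to 76.0) and overlapped in Gnas-eKO, where the BCC sum without replicate 2 was 69.7 ± 11.7 (SD, n = 3).

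**Figure D2:**
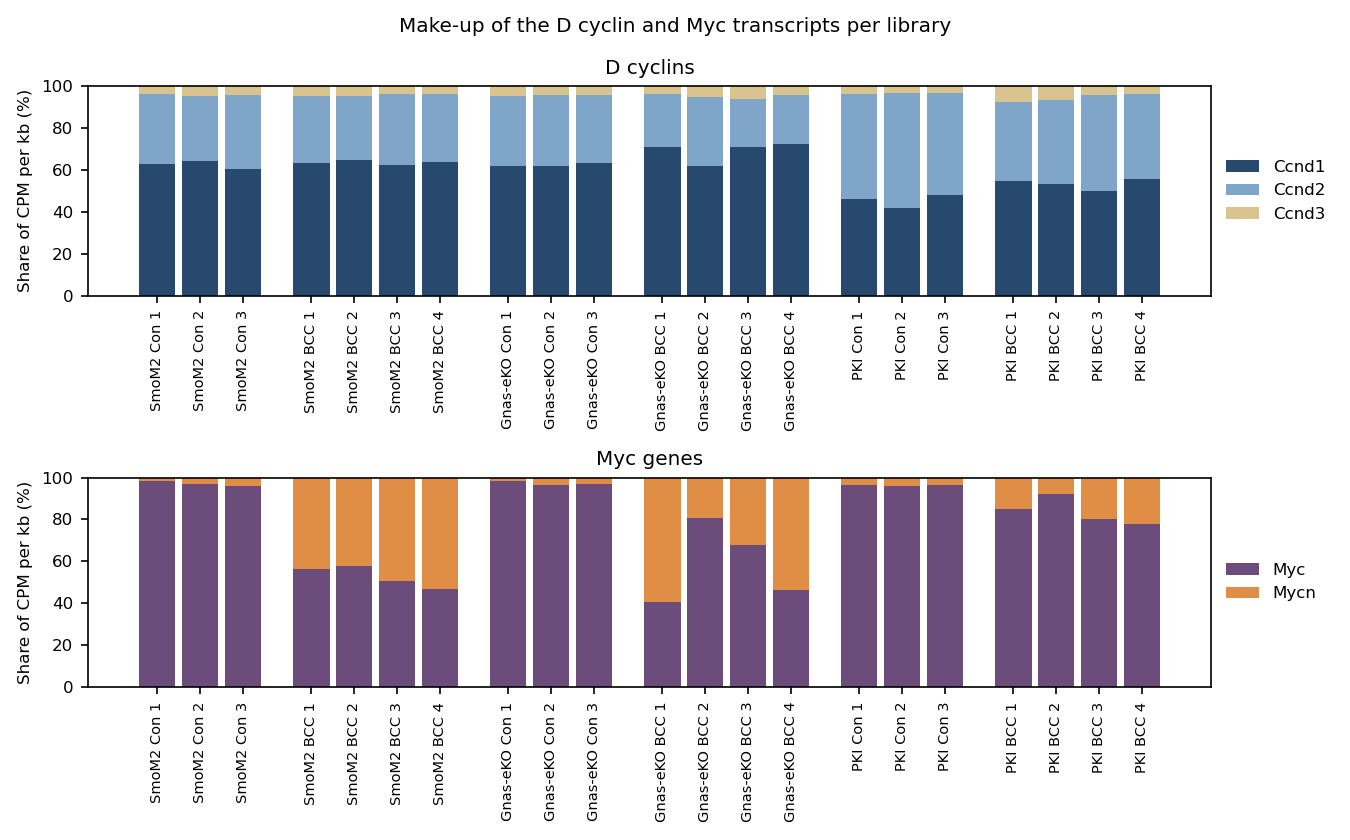
Share of each gene in the summed CPM per kb of the D cyclins (top) and of Myc and Mycn (bottom), in percent (vertical axes), with 1 bar per library. The Mycn share is under 5% in all 9 Con libraries and between 7.89% and 59.5% in the BCC libraries, and the Ccnd2 share is highest in PKI Con.

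Among the D cyclins, Ccnd2 fell in PKI. It was at 544, 629 and 595 CPM in PKI Con and at 312, 313, 467 and 421 CPM in PKI BCC, without overlap, and fell by 0.63 on the log2 scale (SE 0.15, edgeR's adjusted p 0.0113). The PKI Con libraries stood above the Con libraries of the other models, which held 279.9 to 339.7 CPM in SmoM2 and 298 to 346 CPM in Gnas-eKO. The PKI BCC libraries lay near or above those other Con levels, so the fall in PKI started from a higher control level. Summed basal keratinocyte markers were lower in the same PKI BCC libraries (29450 to 32000 against 34860 to 39810 CPM), and their part was not tested. Gnas-eKO BCC had 273, 269, 143 and 254 CPM, all below Con, at a log2 difference of −0.45 (SE 0.22, edgeR's adjusted p 0.305), which was −0.27 without BCC replicate 3, −0.51 without BCC replicate 2 and no further from 0 than −0.52 without any other library. In SmoM2 BCC the range was 315 to 363 CPM, with a log2 fold change of 0.12 (SE 0.08, adjusted p 0.307). The change in PKI was below that in SmoM2 by 0.75 on the log2 scale (95% interval of the difference −1.13 to −0.36, edgeR's adjusted p 0.00866). The difference was −0.56 for Gnas-eKO against SmoM2 (−1.10 to −0.03, adjusted p 0.527) and −0.18 for PKI against Gnas-eKO (−0.79 to 0.42, adjusted p 0.738).

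Ccnd1, the D cyclin with the highest level per kb in 5 of the 6 groups, passed in no model. It ranged from 281 to 323 CPM in SmoM2 Con and from 327 to 338 CPM in SmoM2 BCC, a narrow gap without overlap, at a log2 difference of 0.18 (SE 0.07, edgeR's adjusted p 0.0696) that passed without Con replicate 1 (0.24, adjusted p 0.0251). Gnas-eKO BCC spread from 221 to 398 CPM around Con at 277 to 332 CPM (log2 fold change 0.07, SE 0.22, adjusted p 0.903, and 0.16, adjusted p 0.717, without BCC replicate 2). PKI had 241 to 295 CPM in Con and 206 to 292 CPM in BCC (−0.08, SE 0.13, adjusted p 0.637). Ccnd3 was the scarcest D cyclin, at 35.3 to 40.3 CPM in the 9 Con libraries and 35.4 to 57.9 CPM in the 12 BCC libraries. Its log2 fold change was 0.14 in SmoM2 (adjusted p 0.215), 0.02 in Gnas-eKO (adjusted p 0.954, and 0.02 without BCC replicate 2) and 0.31 in PKI (adjusted p 0.1), which passed without BCC replicate 4 (0.39, adjusted p 0.0482). Per kb, Ccnd2 held 51.2% ± 3.23 of the D cyclin level in PKI Con and 41.0% ± 3.31 in PKI BCC, 33.3% ± 0.438 and 26.1% ± 4.62 in Gnas-eKO, and 33.1% ± 1.82 and 32.2% ± 1.19 in SmoM2 (SD, n = 3 and 4). The share of Ccnd1 was 45.3% ± 3.15 in Con and 53.4% ± 2.50 in BCC of PKI, and 62.3% ± 0.676 and 69.0% ± 4.74 in Gnas-eKO. Without BCC replicate 2, Ccnd2 held 23.9% ± 1.34 and Ccnd1 71.3% ± 0.902 in Gnas-eKO BCC (SD, n = 3). Ccnd3 kept to 3.29% to 7.53% in every library.

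Cdkn1a, which encodes p21, was the inhibitor with the clearest fall in SmoM2. SmoM2 Con had 274, 341 and 314 CPM and SmoM2 BCC 164, 155, 208 and 186 CPM, a fall by 0.78 on the log2 scale (SE 0.11, edgeR's adjusted p 0.000718). Gnas-eKO Con had 255, 249 and 279 CPM against 202, 216, 178 and 239 CPM in BCC, a log2 difference of −0.31 (SE 0.13, edgeR's adjusted p 0.234), and −0.33 without BCC replicate 2 (adjusted p 0.22). PKI Con had 290.5, 335 and 293 CPM against 253, 286, 256 and 240.3 CPM in BCC, with −0.23 (SE 0.09, edgeR's adjusted p 0.0689). All BCC libraries lay below all Con libraries of their own model in each of the 3 models, although only SmoM2 passed. The basal keratinocyte markers summed lower in the BCC libraries of each model too, as given above, and their part in this fall was not tested. PKI passed without BCC replicate 2 (−0.29, adjusted p 0.0299). The fall was smaller in PKI than in SmoM2 by 0.55 (95% interval 0.23 to 0.87, edgeR's adjusted p 0.0147), a call lost without SmoM2 Con replicate 2 (0.47, adjusted p 0.0515). For Gnas-eKO against SmoM2 the difference was 0.47 (0.09 to 0.85, adjusted p 0.431).

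Cdkn1b, which encodes p27, fell in PKI alone among the calls. PKI Con had 122, 112 and 129 CPM and PKI BCC 85.3, 90.6, 92.0 and 94.4 CPM, a log2 difference of −0.41 (SE 0.07, edgeR's adjusted p 0.00332) that passed in every fit run. SmoM2 had 119 to 132 CPM in Con and 130 to 138 in BCC (0.13, adjusted p 0.126), and Gnas-eKO 119 to 146 in Con and 119.9 to 199 in BCC (0.27, adjusted p 0.458, and 0.37, adjusted p 0.19, without BCC replicate 2). PKI BCC held the 4 lowest values of the 21 libraries. The change in PKI was lower than in SmoM2 by 0.54 (95% interval −0.73 to −0.35, edgeR's adjusted p 0.000777). It was lower than in Gnas-eKO by 0.67 (−1.09 to −0.25, edgeR's adjusted p 0.0467), a call lost with no filter on low counts (−0.65, adjusted p 0.0642) and in 11 of the 14 fits that left out a library. It was kept without Gnas-eKO BCC replicate 2 (−0.77, adjusted p 0.0113), Gnas-eKO BCC replicate 3 or Gnas-eKO Con replicate 3. In the 11 others, which left out Gnas-eKO Con replicate 1 or 2, Gnas-eKO BCC replicate 1 or 4 or any PKI library, it was −0.72 to −0.61 (adjusted p 0.0513 to 0.122).

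Cdkn1c, which encodes p57, was scarce, near 1 CPM in most libraries. SmoM2 Con had 1.15, 0.975 and 1.08 CPM and SmoM2 BCC 3.16, 1.98, 1.99 and 1.56 CPM, without overlap, and it rose by 1.04 on the log2 scale (SE 0.31, edgeR's adjusted p 0.0301). The call did not pass without Con replicate 1 (1.09, adjusted p 0.0589), Con replicate 2 (0.97, 0.0941), Con replicate 3 (1.04, 0.068) or BCC replicate 1 (0.80, 0.0747), nor in the joint fit of all libraries (1.02, 0.0999). Gnas-eKO BCC ranged from 0.588 to 2.81 CPM around Con at 1.17 to 1.48 CPM, and PKI BCC from 1.04 to 2.14 CPM around Con at 0.961 to 2.08 CPM (adjusted p 0.889 and 0.682, and for Gnas-eKO 0.723 without BCC replicate 2). Per kb, the summed Cip/Kip level was 115 ± 8.11 CPM in SmoM2 Con and 80.9 ± 6.90 in BCC, 102 ± 7.88 and then 93.2 ± 6.14 in Gnas-eKO, and 113 ± 5.23 and then 93.5 ± 5.36 in PKI (SD, n = 3 and 4), with 95.1 ± 5.88 in Gnas-eKO BCC without replicate 2 (n = 3). Cdkn1a supplied 53.2% to 79.7% of that sum in each library. In SmoM2 its share went from 75.7% ± 3.05 to 61.8% ± 2.94 as that of Cdkn1b went from 23.9% ± 2.98 to 36.8% ± 2.73. In PKI both shares moved little, with 75.9% ± 2.69 and 77.8% ± 1.53 for Cdkn1a.

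Cdkn2a rose in SmoM2 and PKI from near 0, and each BCC library lay above every Con library of its model. SmoM2 Con had 0.0918, 0 and 0 CPM, where 0 allows up to 0.172 and 0.162 CPM, and SmoM2 BCC 1.04, 0.627, 1.25 and 0.755 CPM. Gnas-eKO Con had 0.203, 0.0558 and 0 CPM, where 0 allows up to 0.153 CPM, and Gnas-eKO BCC 1.98, 0.214, 3.37 and 3.33 CPM. In PKI, Con had 0.0506, 0.126 and 0 CPM, where 0 allows up to 0.180 CPM, and BCC 3.64, 3.61, 1.60 and 4.00 CPM. Gnas-eKO BCC replicate 2, the library that stood apart, held 0.214 CPM, close to the highest Con value. Both it and that Con library, replicate 1, had 4 counts, so they lay apart only through the scaling to library size. Summed counts were 2 in Con and 78 in BCC for SmoM2, 5 and 179 for Gnas-eKO, and 3 and 250 for PKI. Scaled for depth, the BCC to Con ratio was 26.7 in SmoM2 (exact 95% counting interval 7.15 to 224), 25.7 in Gnas-eKO (10.8 to 80.1) and 54.7 in PKI (18.5 to 267), and in Gnas-eKO 32.8 without BCC replicate 2 (13.8 to 102). The test called it in SmoM2 (edgeR's adjusted p 0.00166) and PKI (edgeR's adjusted p 0.000398) and not in Gnas-eKO (edgeR's adjusted p 0.0794). Gnas-eKO passed without BCC replicate 2 (adjusted p 0.00502), with the DESeq2 Wald test (0.000351) and in the joint fit (0.00181). The fitted log2 fold changes, 4.53, 4.59 and 5.66, depend on how counts near 0 are handled, and that in SmoM2 was 7.22 without Con replicate 1, the only Con library there with a count. In Gnas-eKO it was 6.08 without Con replicate 1, 4.02 without Con replicate 3 and 4.97 without BCC replicate 2, and in PKI 6.58 without Con replicate 2 and 5.15 without Con replicate 3. The 3 differences between models had 95% intervals from −3.79 to 3.92 for Gnas-eKO against SmoM2, −2.31 to 4.59 for PKI against SmoM2 and −2.47 to 4.62 for PKI against Gnas-eKO, and did not pass.

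Cdkn2a (ENSMUSG00000044303.6, GRCm38 chromosome 4, 89274471 to 89294653, minus strand) gives rise to 2 proteins from 2 starts, p16Ink4a, a CDK4 and CDK6 inhibitor, and p19Arf, which restrains Mdm2 and so protects p53, and the count per gene pools both. Cdkn2b, which encodes p15Ink4b, is its neighbour at 89306299 to 89311039 on the same strand. The stretches before both Cdkn2a starts and before the Cdkn2b start are shown because the neighbours were called in opposite directions in SmoM2. They come from RefSeq (GRCm38.p6, minus strand, 5′ to 3′) at chr4:89294654-89294869, chr4:89282193-89282442 and chr4:89311040-89311282, without bases that GENCODE places in an exon next to the start. The first lies at the outer start, which gives p19Arf, the next at the inner start, which gives p16Ink4a.
Cdkn2a outer start: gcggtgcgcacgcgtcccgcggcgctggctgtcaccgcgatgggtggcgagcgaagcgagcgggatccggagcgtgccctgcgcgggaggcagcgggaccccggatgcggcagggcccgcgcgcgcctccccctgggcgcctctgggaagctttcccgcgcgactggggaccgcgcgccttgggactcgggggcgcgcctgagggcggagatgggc
Cdkn2a inner start: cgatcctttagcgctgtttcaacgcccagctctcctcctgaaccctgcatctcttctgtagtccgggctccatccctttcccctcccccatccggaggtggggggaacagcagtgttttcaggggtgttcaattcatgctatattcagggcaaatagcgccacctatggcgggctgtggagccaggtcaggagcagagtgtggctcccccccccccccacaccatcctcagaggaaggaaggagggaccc
Cdkn2b start: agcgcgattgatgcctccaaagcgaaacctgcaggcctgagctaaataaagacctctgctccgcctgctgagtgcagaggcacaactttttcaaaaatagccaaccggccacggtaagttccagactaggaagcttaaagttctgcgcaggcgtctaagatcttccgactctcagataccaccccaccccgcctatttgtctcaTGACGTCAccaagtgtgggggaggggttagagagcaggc
The capitals in Cdkn2b mark TGACGTCA, the cAMP response element, 46 bases before the start at 89311032. None of the 4 motifs was found in the windows of Ccnd3, Cdkn1a and Cdkn1b or in those of Cdkn2a, whose printed bases were 78.7% G or C at the outer start and 60.0% at the inner start.

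Cdkn2b was at 38.6, 40.2 and 51.7 CPM in SmoM2 Con and 35.4, 29.6, 27.9 and 31.2 CPM in SmoM2 BCC, all 4 below Con. It fell by 0.47 on the log2 scale (SE 0.12, edgeR's adjusted p 0.016). Gnas-eKO had 31.3 to 37.4 CPM in Con and 28.4 to 42.6 in BCC (log2 fold change 0.04, SE 0.15, adjusted p 0.914, and 0.03 without BCC replicate 2), and PKI 24.3 to 35.5 in Con and 29.8 to 42.9 in BCC (0.30, SE 0.15, adjusted p 0.16). The change was higher in PKI than in SmoM2 by 0.77 (95% interval 0.32 to 1.22, edgeR's adjusted p 0.0155), while for Gnas-eKO against SmoM2 it differed by 0.52 (0.08 to 0.95, adjusted p 0.45). Per kb, Cdkn2b still made up most of the summed INK4 level, since Cdkn2a held at most 0.688% of it in any Con library and 3.42% ± 1.15 in SmoM2 BCC, 7.22% ± 5.28 in Gnas-eKO BCC and 9.06% ± 2.06 in PKI BCC (SD, n = 4), with 9.39% ± 3.67 in Gnas-eKO BCC without replicate 2 (n = 3). Cdkn2a and Cdkn2b were thus called in opposite directions in SmoM2, and Cdkn2a alone of this pair was called in PKI.

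**Figure D3:**
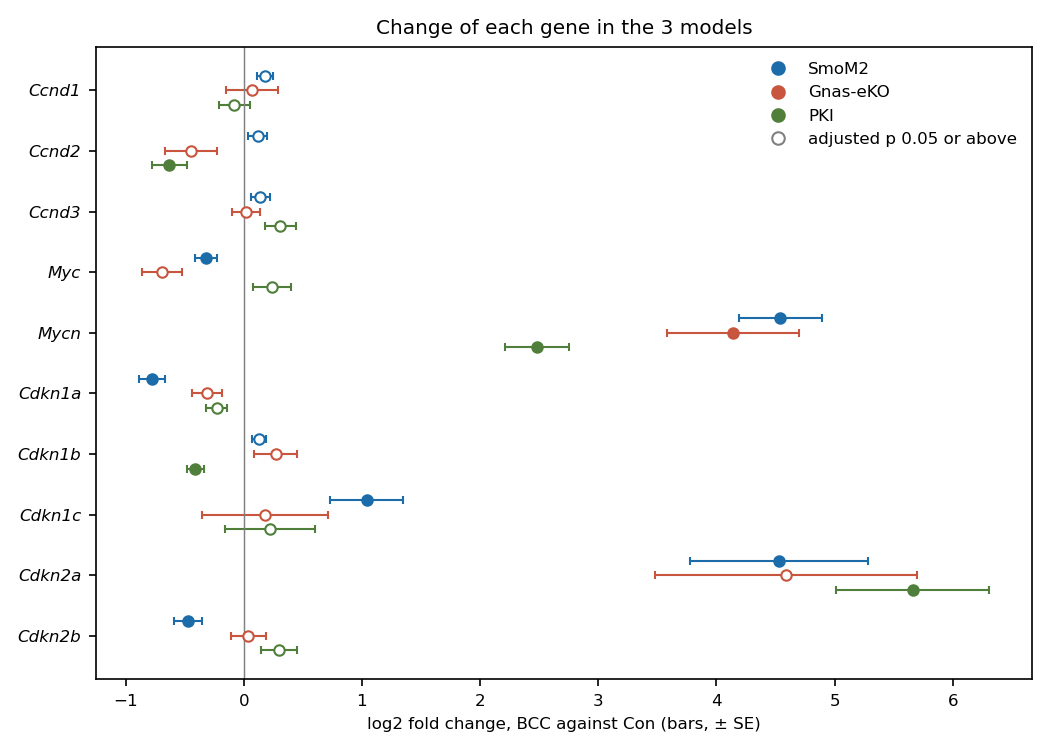
Log2 fold change of BCC against Con (horizontal axis) for each of the 10 genes in the 3 models, with bars for ± SE and open points where the adjusted p was 0.05 or above. Mycn and Cdkn2a lie furthest to the right in all 3 models, while the D cyclins, Myc, Cdkn1a, Cdkn1b and Cdkn2b lie between −0.78 and 0.31.

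The differences between models were tested directly for all 10 genes. For PKI against SmoM2, 5 of 10 passed (Ccnd2, Mycn and Cdkn1b lower in PKI, Cdkn1a and Cdkn2b higher), against 24.9% of all tested genes. PKI against Gnas-eKO gave 2 of 10 (Myc, Cdkn1b), against 9.06% of all tested genes. For Gnas-eKO against SmoM2, the edgeR test called 0 of 10, while 0.175% of all tested genes passed. At an unadjusted p under 0.05 there were 3 of 10 (Ccnd2, Cdkn1a, Cdkn2b), against 8.74% of all tested genes. An additive batch effect cancels in these contrasts, whereas one that scales the change itself would stay. An additive effect of whatever the animal name letters stand for would not cancel in the contrasts with SmoM2, whose Con and BCC letters differ. The comparisons share libraries, since each model enters 2 of them.

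Per kb, Cdkn1a had the highest level of the 10 genes in Con of every model, at 87.1 ± 9.56 CPM per kb in SmoM2, 86.2 ± 7.05 in PKI and 73.5 ± 4.55 in Gnas-eKO (SD, n = 3). It was separated from the next gene in SmoM2 (Ccnd1, 63.1 ± 4.79) and PKI (Ccnd2, 62.6 ± 4.55), while in Gnas-eKO its libraries overlapped those of Ccnd1 (64.1 ± 5.94). Myc came after Ccnd1 at 47.2 to 59.4 CPM per kb in the means, overlapping it in Gnas-eKO and PKI, and Ccnd2, Cdkn1b and Cdkn2b lay between 22.0 and 34.3 apart from Ccnd2 in PKI. Ccnd3, Mycn, Cdkn1c and Cdkn2a were the 4 lowest in this order in all 3 Con groups, with no overlap between neighbours. In SmoM2 BCC, Ccnd1 came first at 70.7 ± 0.955 CPM per kb (SD, n = 4), and Cdkn1a, Myc, Mycn and Ccnd2, from 50.2 down to 35.9 in the means, overlapped each with the next. In Gnas-eKO BCC, Ccnd1 (66.5 ± 18.9) and Cdkn1a (58.7 ± 7.17) led and overlapped. Mycn moved from place 8 in Con to place 4 in SmoM2 BCC, 5 in Gnas-eKO BCC, where it overlapped Cdkn1b and Cdkn2b, and 7 in PKI BCC, where it overlapped Ccnd3. In PKI BCC, Cdkn1a, Myc, Ccnd1 and Ccnd2 led, from 72.8 to 40.2 in the means, each overlapping the next. Cdkn2a passed above Cdkn1c in Gnas-eKO BCC, with overlap, and in PKI BCC, without it (2.74 ± 0.930 against 0.780 ± 0.241 CPM per kb). Without Gnas-eKO BCC replicate 2, Cdkn1b, Myc and Mycn followed Ccnd1 and Cdkn1a there (36.3, 34.9 and 34.8 CPM per kb in the means), each overlapping the next, and Cdkn2a stood above Cdkn1c without overlap (2.47 ± 0.674 against 0.801 ± 0.549, SD, n = 3).

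Other genes of the pathways were taken from lists of textbook members. Of 26 G1 kinases, E cyclins, RB and E2F proteins and their regulators, 13 rose and 1 fell in PKI, 3 rose and 4 fell in SmoM2, and 0 were called by edgeR in Gnas-eKO. Over all tested genes, 18.7% rose and 15.8% fell in PKI, 16.2% and 13.5% in SmoM2, and 1.46% and 0.165% in Gnas-eKO. The counts of these 26 genes in SmoM2 and Gnas-eKO are therefore near the background. The medians of the log2 fold change were 0.28 in PKI, 0.08 in SmoM2 and −0.15 in Gnas-eKO, beside 0, 0 and 0.02 over all tested genes. In PKI the largest rises were Ccne1, a cyclin that acts after the D cyclins (1.28, SE 0.24, adjusted p 0.00376), and the E2F factors E2f8 (0.80, adjusted p 0.00125) and E2f2 (0.74, adjusted p 0.000467), while the RB relative Rbl2 fell by 0.37 (adjusted p 0.00421). In SmoM2, E2f5 (0.96, adjusted p 0.00201), the phosphatase gene Cdc25a (0.62, adjusted p 0.00503) and Cdk4, the kinase partner of the D cyclins (0.59, adjusted p 0.000348), rose. E2f2 (−0.81, adjusted p 0.00242), Fbxw7, part of a ubiquitin ligase that removes cyclin E and Myc (−0.64, adjusted p 0.000478), and Rb1 itself (−0.63, adjusted p 0.00324) fell there. E2f2 was thus called in opposite directions in SmoM2 and PKI. The leukocyte markers rose in the same PKI BCC libraries, at 259 to 482 CPM in sum against 49.2 to 124 in Con, and their part was not tested.

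**Figure D4:**
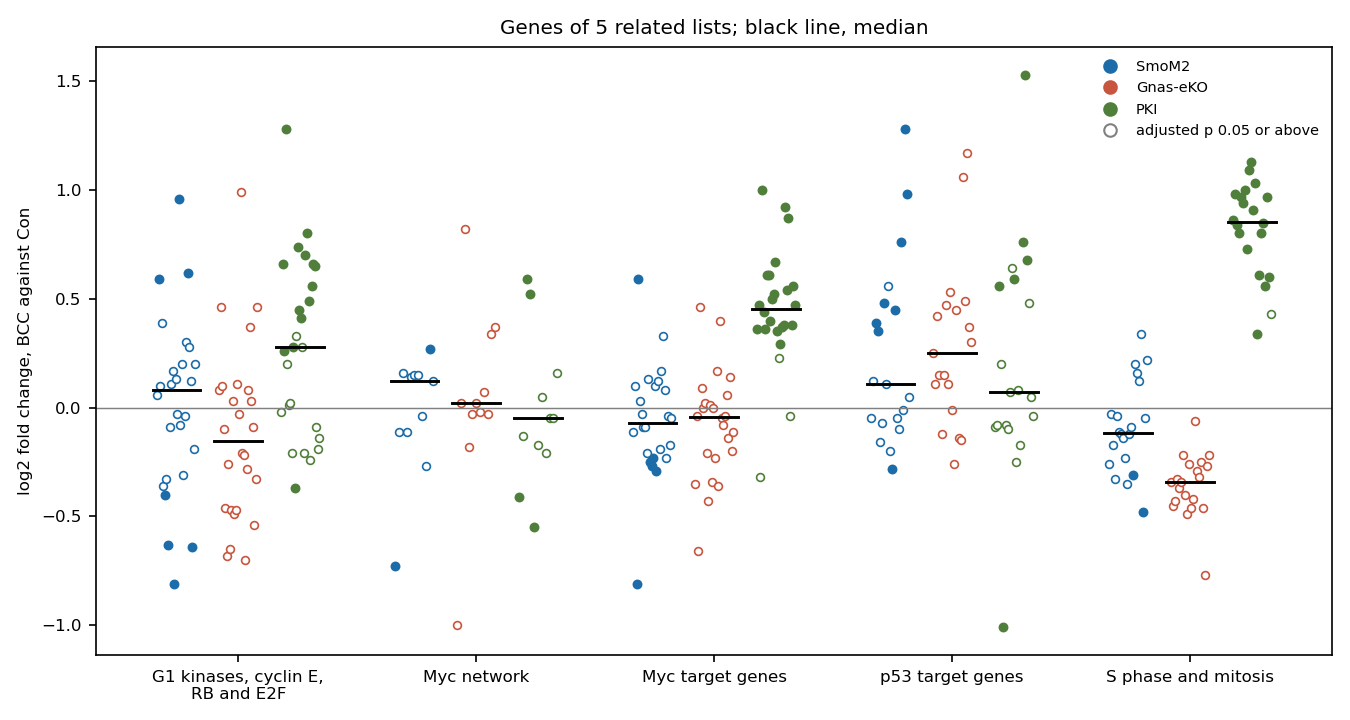
Log2 fold change of BCC against Con (vertical axis) for each tested gene of 5 related lists (horizontal axis), by model, with filled points for an adjusted p under 0.05 and a black line at the median. In PKI most Myc target genes and all 20 S phase and mitosis genes lie above 0, with medians of 0.45 and 0.85, while their medians in SmoM2 are −0.07 and −0.11.

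Of 11 partners and antagonists of Myc, 2 rose in PKI, the Max partners Mxd1 (0.59, adjusted p 0.00245) and Mxd3 (0.52, adjusted p 0.00755), and 2 fell, Mxd4 (−0.55, adjusted p 0.00187) and the further Myc relative Mycl (−0.41, adjusted p 0.0448). In SmoM2, Mlxip rose (0.27, adjusted p 0.0227) and Mycl fell (−0.73, adjusted p 0.0224), and in Gnas-eKO 0 were called by edgeR. These counts are near or under the shares of all tested genes. Those were 18.7% higher and 15.8% lower in PKI, 16.2% and 13.5% in SmoM2, and 1.46% and 0.165% in Gnas-eKO. The call of Mlxip was lost without SmoM2 Con replicate 3, BCC replicate 2 or BCC replicate 4 and that of Mycl without BCC replicate 4, while in PKI 1 gene in place of 2 was called lower without any 1 Con library or BCC replicate 3. Of 24 Myc target genes of ribosome production and metabolism, 21 rose and 0 fell in PKI, 1 rose and 5 fell in SmoM2, and 0 were called in Gnas-eKO, beside the same shares of all tested genes. Cad, which starts pyrimidine synthesis, rose in PKI (1.00, adjusted p 0.000323) and SmoM2 (0.59, adjusted p 0.000326). Ldha, lactate dehydrogenase (0.92, adjusted p 0.00169), and Shmt2, an enzyme of mitochondrial one-carbon metabolism (0.87, adjusted p 0.00173), were the next largest rises in PKI. Odc1, the rate-limiting enzyme of polyamine synthesis (−0.81, adjusted p 0.041), Pa2g4 (−0.29, adjusted p 0.0069) and Rrs1 (−0.27, adjusted p 0.0141) fell in SmoM2. Without SmoM2 Con replicate 2, 1 target gene was called lower in place of 5, without SmoM2 BCC replicate 1 or BCC replicate 2 there were 2, and without Con replicate 1 or BCC replicate 3 there were 2 rises. A difference of these counts between models was not tested. In the PKI BCC libraries with these rises, 8 of 10 leukocyte markers were also called higher (259 to 482 against 49.2 to 124 CPM in sum), and their part was not tested.

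Of 20 p53 target genes, 19 were in the table, and the shares of all tested genes to read them against are again 16.2% higher and 13.5% lower in SmoM2 and 18.7% and 15.8% in PKI. In SmoM2, 7 rose, led by Fas, a death receptor (1.28, adjusted p 0.00235), Ddit4 (0.98, adjusted p 0.0131) and Plk2 (0.76, adjusted p 0.000665), while Perp, a gene of epidermal junctions, fell by 0.28 (adjusted p 0.0161). Without SmoM2 Con replicate 1, 4 rose, and without Con replicate 2, BCC replicate 1 or BCC replicate 2 the fall was not called. Cdkn1a, a target of the same factor, fell in these SmoM2 libraries as given above. In PKI, 5 rose, with Plk2 (1.53, adjusted p 0.000255), Gtse1 (0.76, adjusted p 0.0016) and Btg2 (0.68, adjusted p 0.00138) first, and Sesn1 fell (−1.01, adjusted p 0.00041), with 2 falls without BCC replicate 2. The count of rises in PKI is near the background. Gnas-eKO had 0 calls by edgeR, where 1.46% of all tested genes were higher and 0.165% lower, and a median of 0.25.

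Of 20 genes of S phase and mitosis, 19 rose in PKI, where 18.7% of all tested genes did, with Aurka (1.13, adjusted p 0.000365), Plk1 (1.09, adjusted p 0.000137), both mitotic kinases, and Cdc20, an activator of the anaphase-promoting complex (1.03, adjusted p 9.86e-05), first. The leukocyte markers (259 to 482 against 49.2 to 124 CPM in sum, 8 of 10 called higher) and the fibroblast markers (84.4 to 145 against 15.8 to 43.5 CPM, 3 of 6 called higher) stood higher in the same PKI BCC libraries, and their part was not tested. In SmoM2, 0 rose, against 16.2% of all tested genes, and 2 fell, against 13.5%, Rrm2, a subunit of ribonucleotide reductase (−0.48, adjusted p 0.00139), and Pcna, the DNA polymerase clamp (−0.31, adjusted p 0.00583), and 1 gene was called higher without Con replicate 1. In Gnas-eKO the median was −0.34 with 0 calls by edgeR, against 1.46% of all tested genes higher and 0.165% lower. Over the 5 lists, Gnas-eKO gained calls without BCC replicate 2: 2 higher and 3 lower among the G1 genes, 3 and 1 in the Myc network, 2 lower among Myc targets, 2 higher among p53 targets and 1 lower among S phase and mitosis genes. The DESeq2 Wald test gave 2 higher and 3 lower among the G1 genes of Gnas-eKO, 2 lower Myc targets, 3 higher p53 targets and 1 lower S phase and mitosis gene. The shares of all tested genes in those fits, 7.36% higher and 4.43% lower without BCC replicate 2 and 6.13% and 2.19% with the Wald test, are the background of these counts.

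The genes with the most similar pattern were ranked by Pearson r over the 21 libraries, in log2 CPM after the mean of the Con libraries of the same model was subtracted, among 12030 genes. These values describe shared libraries, in which BCC and Con differ for many genes, and carry no test. For Mycn they were Scnn1b (0.99), Atp6v1b1 (0.99) and Pakap (0.989). For Cdkn2a they were Tmsb10 (0.962), Gm9844 (0.962) and Cxadr (0.955). For Ccnd2 they were Slc6a6 (0.943), Wwc2 (0.934) and Dnal4 (0.933), for Ccnd1 Rsf1 (0.897), Akap13 (0.864) and Ddx6 (0.858), and for Ccnd3 Mvp (0.877), Ctdnep1 (0.838) and Tmed9 (0.812). For Myc they were Noa1 (0.9), Eif2b5 (0.896) and 2210016F16Rik (0.888). Cdkn1a was closest to Ezr (0.943), Afap1l2 (0.935) and Diaph1 (0.925), and Cdkn1b to Uckl1 (0.957), Exd2 (0.929) and Gigyf1 (0.926). Cdkn2b was closest to Spire1 (0.886), Prcp (0.875) and Manbal (0.87), and Cdkn1c to Bap1 (0.809), A430033K04Rik (0.805) and Itm2c (0.801).

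Positions and overlaps bear on how the counts can be read. In GENCODE M21 (GRCm38), Ccnd1 lies on chromosome 7 at 144929931 to 144939925, Ccnd2 on chromosome 6 at 127125162 to 127152193, and Cdkn1c on chromosome 7 at 143458339 to 143461050, all on the minus strand. On the plus strand, Ccnd3 lies on chromosome 17 at 47505051 to 47599691, Cdkn1a on chromosome 17 at 29090976 to 29100727, Cdkn1b on chromosome 6 at 134920401 to 134925513, and Myc on chromosome 15 at 61985391 to 61990374. Genes on the opposite strand share 30.7% of the exon bases of Cdkn1c (Gm44732) and 23.4% of those of Ccnd1 (LTO1), and at most 7.7% of those of Ccnd2, Ccnd3 and Cdkn1a. The library kit marks strand, but whether the counting used it is not given in the sources used here. What these genes may add to the counts of Cdkn1c and Ccnd1 was not tested. Myc, Mycn, Cdkn1b, Cdkn2a and Cdkn2b overlap no other annotated gene.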

How the data were processed

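RNA of tail keratinocytes from 21 mice was prepared with a stranded polyA kit, per the labels' protocols. The submitters' processing notes name bcl2fastq 2.20, cutadapt 1.18, STAR 2.7.0f, Partek and the build mm10, without their role. The authors deposited estimated counts per gene without normalization. Of these values 33.1% are not whole, so they were rounded. The second table the authors deposited holds a normalized signal, which is each count times a factor per library plus 0.001, and it was used as an alternative for levels only. Every gene of the count table has at least 10 counts summed over the libraries. Each library carries its own animal name in the file headers, and p-values measure the spread between these libraries.

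After filtering with filterByExpr and TMM scaling in each model, the 3 Con and 4 BCC libraries were compared by edgeR 4.0.16 (R 4.3.3), with the robust quasi-likelihood test and Benjamini-Hochberg adjustment over all tested genes. Interaction contrasts used the 14 libraries of 2 models. The SE is the absolute log2 fold change over the square root of F. Intervals are at 95%. Alternatives were DESeq2 1.42.0 (size factors and Wald test), no filter, a replicate block, a joint fit of all libraries and leaving out each library. Likeness used log2 CPM with a prior count of 2 and genes with a mean of at least 2. Exon lengths and overlaps come from GENCODE M21, and promoter windows from RefSeq.

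The members and lists were chosen with earlier results of these data known. By rule, all 10 members are named, and from each list up to 3 called rises and 3 called falls per model, and for each member up to 3 genes of most similar pattern.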

Additional observations from a re-analysis of the deposited data

Results flagged for a closer look

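Of 30 groups of 4 BCC libraries, 1 group per gene and model, 2 held a library far from the other 3 by Dixon's criterion, and chance alone gives about 1 in 20. Ccnd2 was at 143 CPM in Gnas-eKO BCC replicate 3, below 254 to 273 CPM in the other 3. Cdkn2a was at 1.60 CPM in PKI BCC replicate 3, below 3.61 to 4.00 CPM in the other 3.

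The BCC effect differed between models for 7 gene and model pairs by the interaction test. For PKI against SmoM2 the differences on the log2 scale were −0.75 for Ccnd2, −2.06 for Mycn, 0.55 for Cdkn1a, −0.54 for Cdkn1b and 0.77 for Cdkn2b. For PKI against Gnas-eKO they were 0.94 for Myc and −0.67 for Cdkn1b. Among all tested genes, 24.9% differed for PKI against SmoM2 and 9.06% for PKI against Gnas-eKO. Of the latter contrast, leaving out a library lost the Myc call in 8 of 14 fits and the Cdkn1b call in 11. Model, batch and day cannot be told apart in these differences.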

How the results depend on the processing

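Same-numbered BCC and Con libraries deviated together with a correlation of −0.13 to 0.28, and not over 0.1 in every pair. This does not show that the numbers pair the samples, and with so few pairs it cannot exclude it. With the replicate block, SmoM2 had 1 gene called lower (Myc −0.28, adjusted p 0.1; Cdkn2b −0.47, adjusted p 0.0891), Gnas-eKO had 0 called higher (Mycn 3.62, adjusted p 0.0605), and PKI against Gnas-eKO had 0 differences (Myc 0.99, adjusted p 0.0933; Cdkn1b −0.66, adjusted p 0.0633). In PKI the block called Ccnd3 (0.38, adjusted p 0.0258), and for PKI against SmoM2 it called Ccnd1 (−0.36, adjusted p 0.0362).

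In Gnas-eKO, genes called higher numbered 2 with the DESeq2 Wald test and 2 in the joint fit, and 0 to 2 without a library, while those called lower numbered 1, 1 and 0 to 1. All genes called there numbered 267, and 0 to 1910 without a library. They numbered 1540 with the Wald test, 135 with the replicate block and 2644 in the joint fit. The 2644 were not split into higher and lower, so the joint fit counts below have no such share beside them. The gene lists had 0 called in Gnas-eKO in the fit of its own 7 libraries. Of all tested genes, 1.46% were higher and 0.165% lower in that fit. The Wald test, the joint fit and the fit without Gnas-eKO BCC replicate 2 called, in that order, 2, 2 and 2 higher and 3, 8 and 3 lower G1 genes, 0, 2 and 3 higher and 0, 0 and 1 lower genes of the Myc network, 2, 4 and 2 lower Myc targets, 3, 4 and 2 higher p53 targets, and 1, 3 and 1 lower S phase and mitosis genes. In SmoM2, lower Myc targets numbered 5, and 2 with the block, 3 in the joint fit and 1 to 6 without a library, while higher p53 targets numbered 7, and 4 with the block and 4 to 7 without a library. The other list counts that moved by over 1.5 times in SmoM2 and PKI, without a library left out, were of 1 or 2 genes and became 0 to 2. Differences of PKI against Gnas-eKO numbered 1 with no filter and 0 to 3 without a library.

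Directions turned only for differences that had not passed. With the block these were Ccnd1 (−0.11), Ccnd3 (−0.06) and Cdkn1c (−0.13) in Gnas-eKO, and Cdkn2a for Gnas-eKO against SmoM2 (−0.47). Without a library, Ccnd1 ranged from −0.07 to 0.21, Ccnd3 from −0.06 to 0.07, Cdkn1c from −0.37 to 0.44 and Cdkn2b from −0.06 to 0.13 in Gnas-eKO, and Ccnd1 from −0.18 to 0.01 in PKI. For Gnas-eKO against SmoM2, Ccnd1 ranged from −0.24 to 0.03, Cdkn1b from −0.01 to 0.24 and Cdkn2a from −2.61 to 1.56. Cdkn2a ranged from −1.52 to 2.07 for PKI against SmoM2 and from −0.41 to 2.01 for PKI against Gnas-eKO, where Cdkn1c ranged from −0.21 to 0.59. The causes were not tested.

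Mycn and Cdkn2a in SmoM2 and PKI, Cdkn1a in SmoM2, and Ccnd2 and Cdkn1b in PKI passed under every alternative run. Without Gnas-eKO BCC replicate 1, 3 or 4, Cdkn2a did not pass the filter there and gave no value. Levels moved by less than 1 SD with the authors' normalized signal. Depth limits Cdkn2a and Cdkn1c, whose counts per library were low.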
